A study of Mus musculus with 24 samples.

Results

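Serpins are a large family of protease inhibitors that share 1 fold. An inhibitory serpin offers a flexible reactive-centre loop as bait, is cut there by its target protease and traps that protease in a covalent complex, while some members have lost inhibition and act as chaperones, hormone carriers or signals. Clade a members are mostly secreted, and several circulate as plasma proteins made by the liver; clade b members lack a classical signal peptide, stay largely inside cells and are abundant in squamous epithelium and leukocytes; the remaining clades hold secreted regulators of coagulation, fibrinolysis, complement and matrix. In mouse, the clade a gene for alpha-1-antichymotrypsin and the clade b genes for the squamous cell carcinoma antigens have multiplied into clusters of similar copies.

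The Serpin genes described here are all rows of a whole-ear RNA-seq count table whose mouse symbol starts with Serpin. There were 68 among 51912 genes in the table, of which 29 belonged to clade a, 28 to clade b and 11 to clades c to i, and 7 of the 68 were annotated pseudogenes. Chromosome 12 carried 28 of them, chromosome 13 carried 16 and chromosome 1 carried 14. The symbols were matched through the Ensembl identifiers of the table.

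The libraries came from whole ears of C57BL/6 mice that were either wild type (label Wt) or CARD14E138A, with 6 samples for each genotype at 5 days and 6 at 1 month, counted from the first of 3 daily tamoxifen injections. The mutant mice carried a Card14LSL-E138A knock-in allele, in which tamoxifen activation of CreERT2 switches on the psoriasis-associated E138A form of Card14, an epithelial scaffold protein, from its own locus. The wild-type mice received tamoxifen too, so the injections are common to all 4 groups. The promoter that drives CreERT2, the ages and whether each sample is a separate animal are not given in the sources used here, so the p-values speak to the spread among the deposited samples, and that spread may in part be technical.

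Total counts ran from 15661515 to 16998900 per library in wild type at day 5, from 16803680 to 18852963 in the mutant at day 5, from 19255028 to 23904976 in wild type at 1 month and from 20608274 to 23022149 in the mutant at 1 month. Card14 itself had median levels of 48.5 CPM (counts per 1000000) in wild type and 44.5 CPM in the mutant at day 5, and of 37.5 and 13 CPM at 1 month, when its log2 fold change was -1.49 ± 0.20 (SE, adjusted p = 1.58e-06). A gene-level count does not show the altered codon and so does not check the labels. Markers of neutrophils were summed at 19.7 to 26.6 CPM in the wild-type libraries, against 1943 to 8780 CPM in those of the mutant, at day 5. The 12 genes of this list include S100a8 and S100a9. A sum follows its most abundant genes, so it does not measure neutrophil number. All groups expressed the epithelial, fibroblast and muscle markers of a whole ear. At 1 month, 3 libraries stood apart by a correlation above 0.4 between expression and gene GC content: wild type replicate 2 and mutant replicates 1 and 6. Counts without these 3 libraries are given below for 1 month and for the interaction.

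Because many of the members are copies of each other, the stretch of coding sequence where the copies differ most shows what separates their reads. The Serpinb3 copies on chromosome 1 were between 86.2% and 93.4% identical over their aligned coding sequence. Their most variable 75 bases, the length of a read, lie over the start of the reactive-centre loop (the hinge and the residues after it), and are printed here from bases 995 to 1069 of each coding sequence (GENCODE M21, GRCm38), with capitals marking each base that differs from Serpinb3a.
Serpinb3a: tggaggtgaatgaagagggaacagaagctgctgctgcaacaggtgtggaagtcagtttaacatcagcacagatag
Serpinb3b: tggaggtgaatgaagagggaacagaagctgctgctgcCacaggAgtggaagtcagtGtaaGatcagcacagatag
Serpinb3c: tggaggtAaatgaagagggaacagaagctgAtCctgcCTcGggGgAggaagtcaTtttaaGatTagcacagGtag
Serpinb3d: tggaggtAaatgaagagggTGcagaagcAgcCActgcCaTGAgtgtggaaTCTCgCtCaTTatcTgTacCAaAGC

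Over these 75 bases Serpinb3b differed from Serpinb3a at 4 positions, Serpinb3c at 12 and Serpinb3d at 25. In the whole transcripts, 8.09% of the 75-base windows of Serpinb3a and 2.28% of those of Serpinb3b occur unchanged in another gene, so a small share of their reads could have been split between copies by the authors' counting.

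The Serpina3 copies on chromosome 12 differ more from each other. Their most variable 75 bases lie near the end of the coding sequence, at bases 1163 to 1237 of Serpina3n, and capitals mark each base that differs from Serpina3n. Serpina3m and Serpina3i are shown because they rose with Serpina3n at day 5, and Serpina3k, Serpina3c and Serpina3b because they did not.
Serpina3n: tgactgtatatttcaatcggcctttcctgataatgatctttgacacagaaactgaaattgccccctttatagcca
Serpina3m: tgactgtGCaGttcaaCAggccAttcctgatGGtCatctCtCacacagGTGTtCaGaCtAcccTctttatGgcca
Serpina3i: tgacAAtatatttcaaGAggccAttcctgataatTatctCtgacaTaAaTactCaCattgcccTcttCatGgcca
Serpina3k: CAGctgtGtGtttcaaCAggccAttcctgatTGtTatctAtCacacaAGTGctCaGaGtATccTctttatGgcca
Serpina3c: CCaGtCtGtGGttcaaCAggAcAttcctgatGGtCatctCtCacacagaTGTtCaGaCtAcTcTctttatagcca
Serpina3b: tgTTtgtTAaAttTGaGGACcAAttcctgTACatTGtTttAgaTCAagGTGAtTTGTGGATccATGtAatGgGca

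Serpina3i differed from Serpina3n at 15 of these positions, Serpina3m at 21, Serpina3k at 24, Serpina3c at 25 and Serpina3b at 41. Serpina3k and Serpina3m overlap on the same strand over 7659 bases, and 7.36% and 9.65% of their windows are shared with another gene, so reads of that stretch are uncertain between them. Serpina3e-ps and Serpina3h share 11.1% and 11% of their windows with other genes, the most among the Serpina3 copies named, and Serpina3g shares 7.69%. The values of the copies are therefore also given summed.

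**Figure D1:**
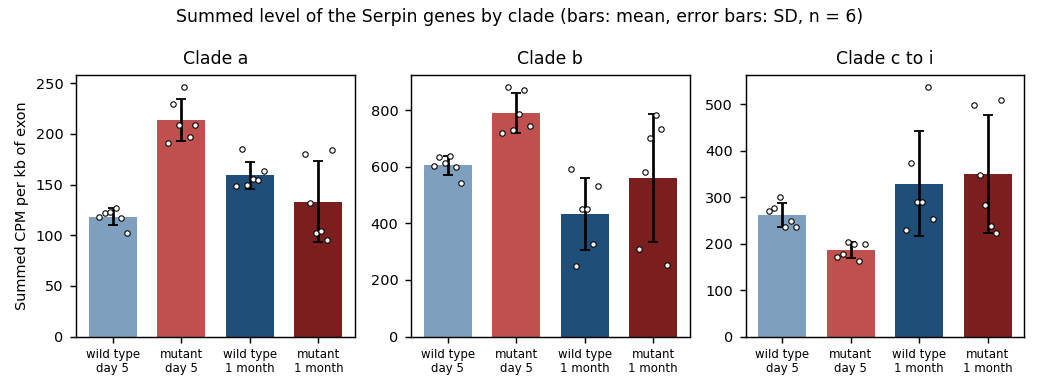
Summed level of all Serpin genes of clade a (29 genes), clade b (28) and clades c to i (11) in CPM per kilobase of exon. Bars are means of 6 libraries, error bars are SD, and points are libraries. Clade a is highest in the mutant at day 5, where the 6 libraries lie between 191 and 246, and clades c to i are lowest there, between 163 and 203.

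Summed over all members, Serpin transcripts stood at 985 ± 57.4 CPM per kilobase of exon in wild type and 1189 ± 74.9 in the mutant at day 5 (mean ± SD, n = 6), and at 922 ± 74 and 1043 ± 65.9 at 1 month. Serpinb5 (maspin, a keratinocyte protein that does not inhibit proteases in the usual way) was the most abundant per length in wild type, with 19.3% of the summed level at day 5 and 16.1% at 1 month. In the mutant at day 5, Serpinb3b led with 16.5%, and at 1 month Serping1, the C1 inhibitor of complement and contact proteases, had the highest mean, at 15.9%. Serping1 led in mutant replicates 1 and 6 of 1 month alone, both among the libraries that stood apart, and Serpinb3a led in replicates 3, 4 and 5. Over the 4 mutant libraries that did not stand apart, Serpinb3a averaged 221, Serpinb5 176 and Serping1 128 CPM per kilobase. Within clade a, Serpina3h and Serpina12 had like levels in wild type at day 5, at 32.8 and 32.1 CPM per kilobase, and Serpina3h was the higher in 4 of 6 libraries. Serpina3h led in 5 of 6 wild-type libraries at 1 month, and Serpina3n led in all 12 mutant libraries, at 67.3% of the clade's summed level at day 5 and 72.9% at 1 month. In these whole-ear samples, fewer cells of a type and less RNA per cell cannot be told apart.

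Of the 68 members, 42 passed the filter on low counts and were tested: 15 of 29 in clade a, 18 of 28 in clade b and 9 of 11 in clades c to i. The filter asked for enough counts in at least as many libraries as 1 group holds, so a member high in a single group could pass through that group alone. Serpina10, Serpina1e and Serpind1 had enough counts in all 6 libraries only in the mutant at 1 month. The same held for Serpinb3c in the mutant at day 5 and for Serpina3k in wild type at 1 month. These members were tested because of the group where they were high, which limits how their p-values can be read. The 26 members that did not pass had group means of at most 0.715 CPM, and 6 of them had no count in any library. Tests were made with edgeR's quasi-likelihood test over all 17287 genes that passed, with Benjamini-Hochberg adjustment and a threshold of 0.05, and every adjusted p below comes from it.

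At day 5, 14 of the 42 tested members were higher in the mutant and 9 were lower, while 40.9% of all tested genes were called (20.7% higher and 20.2% lower). The median log2 fold change of the tested members was 0.12, beside -0.02 for all tested genes. By clade, 7 of 15 in clade a were higher and 3 lower, 5 of 18 in clade b were higher and 4 lower, and 2 of 9 in clades c to i were higher and 2 lower. Wild-type and mutant libraries did not overlap for 20 members, beside 34.3% of all tested genes.

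At 1 month, 14 members were higher and 13 lower, while 47.1% of all tested genes were called (25.5% higher and 21.5% lower). Without the 3 libraries that stood apart the counts were 14 and 16. The filter was applied anew in each fit that left out libraries, so such counts can include members outside the 42. Among the 42, the lower calls gained were those of Serpina3g and Serpinf1, so the 16 include a member outside them. The shares of all tested genes, here and below, are those of the fit to all 24 libraries. The median log2 fold change was 0.08, beside 0.05 for all tested genes. Here 5 of 15 in clade a were higher and 7 lower, 6 of 18 in clade b were higher and 5 lower, and 3 of 9 in clades c to i were higher and 1 lower. The genotypes did not overlap for 19 members, beside 21.2% of all tested genes. The members called higher at both times numbered 10, and those called lower at both times 6. Another 4 were called higher and 3 lower at day 5 alone, and 4 higher and 7 lower at 1 month alone. The remaining 8 (Serpinb2, Serpinb5, Serpinb6c, Serpinb9, Serpinb10, Serpinc1, Serpinf2 and Serpini1) were called at neither time.

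The change between genotypes itself differed between the times, as tested by the interaction of genotype and time, for 15 members: 2 were more positive at 1 month and 13 more negative, while 8.77% of all tested genes were called (4.68% more positive and 4.09% more negative). Clade a held 9 of the 13, and its median interaction was -1.31 on the log2 scale, beside 0.02 for all tested genes. Without the 3 libraries that stood apart the counts were 3 and 13. The plot of change at day 5 against change at 1 month shows the 13 below the line of equal change.

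**Figure D2:**
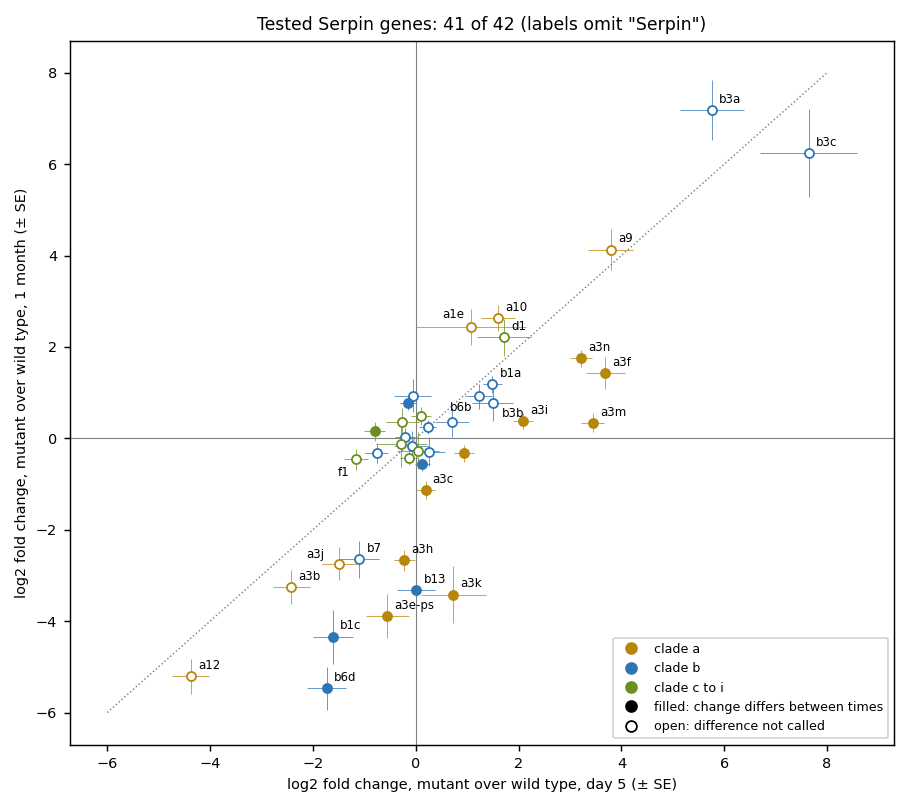
Log2 fold change of mutant over wild type at day 5 (x axis) and at 1 month (y axis) for 41 of the 42 tested members, with SE bars, coloured by clade. Filled points differ between the times by the interaction test, and the dotted line marks equal change. Serpinb3a and Serpinb3c lie at the upper right, Serpina12 at the lower left, and Serpina3m, Serpina3i and Serpina3n to the right of the line.

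The Serpina3 copies encode secreted inhibitors related to human alpha-1-antichymotrypsin, an acute-phase inhibitor of chymotrypsin-like proteases such as cathepsin G. Among the 11 copies that passed the filter, 1 set (Serpina3n, Serpina3m, Serpina3i, Serpina3f and Serpina3g) rose at day 5, another (Serpina3b and Serpina3j) was lower at both times, and the last (Serpina3c, Serpina3h, Serpina3k and Serpina3e-ps) was lower at 1 month only. All of the first and last sets had a negative interaction.

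Serpina3n, the most abundant copy in the mutant, measured 29.2, 30.3 and 40.4 CPM (lowest, median and highest) in wild type at day 5 and 221, 297 and 372 CPM in the mutant. At 1 month it measured 45.1, 53.2 and 90.0 CPM in wild type and 150, 168 and 289 CPM in the mutant. The genotypes did not overlap at either time, and the wild-type libraries were higher at 1 month. The log2 fold change was 3.21 ± 0.21 at day 5 (9.28-fold, adjusted p = 6.84e-11) and 1.75 ± 0.19 at 1 month (3.36-fold, adjusted p = 1.28e-07). The interaction was -1.47 ± 0.27 (adjusted p = 0.000844), and wild type alone rose by 0.89 ± 0.19 between the times (adjusted p = 0.00479).

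Serpina3m measured 0.392, 0.69 and 0.991 CPM in wild type and 4.98, 7.8 and 10 CPM in the mutant at day 5, against 1.75, 1.82 and 2.3 CPM and 1.66, 2.17 and 3.31 CPM at 1 month. Every mutant library lay above every wild-type library at day 5, and the genotypes overlapped at 1 month. Its log2 fold change was 3.44 ± 0.23 at day 5 (adjusted p = 1.55e-10) and 0.34 ± 0.21 at 1 month (adjusted p = 0.19), with an interaction of -3.10 ± 0.31 (adjusted p = 7.33e-07), the smallest interaction p among the Serpin genes. Its wild-type level rose by 1.42 ± 0.23 between day 5 and 1 month (adjusted p = 0.000421), and its mutant level fell by 1.68 ± 0.21 (adjusted p = 1.84e-06).

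Serpina3i measured 3.55 to 5.44 CPM in wild type against 15.7 to 22.5 CPM in the mutant at day 5 (medians 4.18 and 17.4), and 4.6 to 8.42 and 5.96 to 13 CPM at 1 month (medians 6.94 and 8.31). The log2 fold change was 2.09 ± 0.19 at day 5 (adjusted p = 1.78e-08) and 0.38 ± 0.18 at 1 month (adjusted p = 0.0922). Serpina3f ran from 0.37 to 0.636 CPM in wild type against 3.26 to 10.7 CPM in the mutant at day 5, and from 0.339 to 1.33 and 0.766 to 3.36 CPM at 1 month. Its log2 fold change was 3.69 ± 0.37 at day 5 (12.9-fold, adjusted p = 6.58e-08) and 1.42 ± 0.35 at 1 month (adjusted p = 0.00154), where the genotypes overlapped. Serpina3g, an intracellular copy described in activated leukocytes, ran from 4.46 to 7.37 CPM in wild type against 9.14 to 13.5 CPM in the mutant at day 5. At 1 month its libraries overlapped, at 9.89 to 15.5 and 5.77 to 14.9 CPM, and the log2 fold change went from 0.94 ± 0.20 (adjusted p = 0.00051) to -0.33 ± 0.19 (adjusted p = 0.164). The 1 month comparison passed the threshold for Serpina3g without mutant replicate 1 (adjusted p = 0.0427) or all 3 libraries that stood apart (-0.62, adjusted p = 0.0114), and for Serpina3i without mutant replicate 5 (adjusted p = 0.0376), while without the 3 that stood apart Serpina3i was at 0.03 (adjusted p = 0.914). These 3 copies had interactions of -1.70 ± 0.26, -2.27 ± 0.50 and -1.27 ± 0.28 in that order (adjusted p from 0.000152 to 0.00514).

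**Figure D3:**
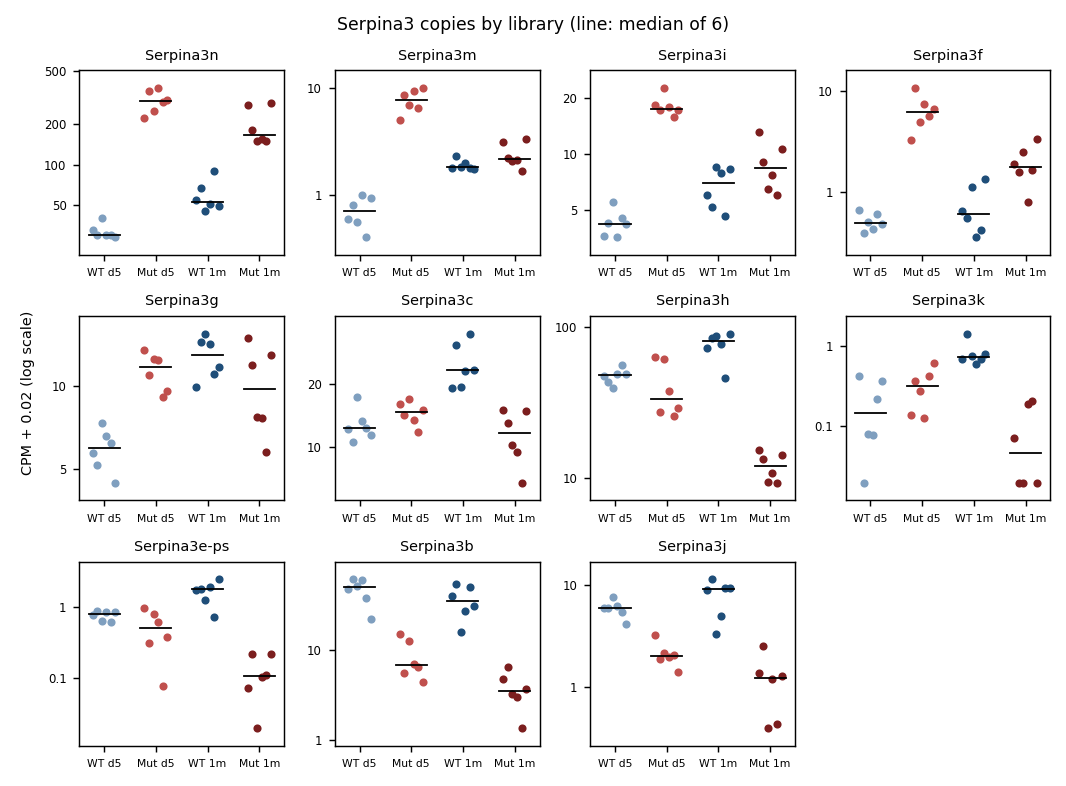
CPM plus 0.02 on a log scale in each library for the 11 tested Serpina3 copies, with the median of 6 as a line (WT wild type, Mut mutant, d5 day 5, 1m 1 month). Serpina3n, Serpina3m, Serpina3i and Serpina3f are raised in all 6 mutant libraries at day 5; Serpina3h, Serpina3k and Serpina3e-ps are lowest in the mutant at 1 month.

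The last set did not pass the test at day 5 and was lower at 1 month. Serpina3h, annotated as a pseudogene and the copy with the highest mean per length in wild type, measured 39.3, 47.8 and 55.6 CPM in wild type and 25.6, 33.2 and 62.7 CPM in the mutant at day 5. At 1 month it measured 45.6, 80.7 and 90.1 CPM in wild type and 9.28, 12 and 15.2 CPM in the mutant, with no overlap. Its log2 fold change was -0.22 ± 0.21 at day 5 (adjusted p = 0.445) and -2.67 ± 0.23 at 1 month (6.35-fold lower, adjusted p = 3.39e-09). Serpina3c went from 0.19 ± 0.18 to -1.13 ± 0.19 (adjusted p = 0.455 and 2.18e-05), with 19.2 to 35.0 CPM in wild type against 6.69 to 15.0 CPM in the mutant at 1 month. Serpina3e-ps, a pseudogene, went from -0.55 ± 0.42 to -3.89 ± 0.48 (adjusted p = 0.32 and 5.42e-07).

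Serpina3k, known as a kallikrein-binding plasma protein, was low throughout: 0 to 0.405 CPM in wild type against 0.108 to 0.602 CPM in the mutant at day 5, and 0.581 to 1.4 and 0 to 0.185 CPM at 1 month. The genotypes overlapped at day 5 and did not at 1 month, when the log2 fold change was -3.42 ± 0.62 (adjusted p = 7.42e-05). Beside these copies, summed markers of skeletal muscle at 1 month stood at 5162 to 16340 CPM in wild type against 854 to 3763 CPM in the mutant, with 8 of 8 lower, and those of adipocytes at 771 to 1566 and 271 to 468 CPM, with 8 of 8 lower. At that time 21.5% of all tested genes were lower. Hepatocyte markers, listed because several clade a proteins are made by the liver, were summed at 35.3 to 113 CPM in wild type against 5.07 to 16.8 CPM in the mutant at 1 month. Of the 5 tested of 11, 2 were lower then. Fgb had no count in either genotype at 1 month, and Apob had none in the mutant. Other lists had members called lower too at 1 month: 5 of 7 tested chondrocyte, 4 of 8 sebaceous gland and 7 of 11 suprabasal and granular keratinocyte markers. Of the last list 2 were higher, and its sums did not fall, at 11551 to 21801 CPM in wild type against 16834 to 31092 CPM in the mutant. The part of these tissues in the result was not tested.

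Serpina3b and Serpina3j were lower at both times. Serpina3b measured 21.4, 48.4 and 59.2 CPM in wild type and 4.39, 6.7 and 14.9 CPM in the mutant at day 5, and 15.7, 34.4 and 52.3 against 1.34, 3.44 and 6.34 CPM at 1 month. The genotypes did not overlap, with log2 fold changes of -2.42 ± 0.36 (adjusted p = 9.8e-06) and -3.26 ± 0.37 (adjusted p = 1.92e-07). Serpina3j had log2 fold changes of -1.49 ± 0.34 (adjusted p = 0.00121) and -2.74 ± 0.36 (adjusted p = 1.15e-06), from medians of 6.0 and 9.14 CPM in wild type. Summed to 1 row, the Serpina3 copies measured 155 ± 16.1 CPM in wild type and 408 ± 46 CPM in the mutant at day 5 (log2 fold change 1.40 ± 0.15, adjusted p = 1.86e-07). At 1 month the sums were 227 ± 26.9 and 253 ± 78.9 CPM (0.15 ± 0.15, adjusted p = 0.433), and the interaction of the sum was -1.25 ± 0.21 (adjusted p = 0.000405).

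The RefSeq promoters, taken as the 300 bases around each start site (GRCm38.p6), were available for 53 of the 68 genes, at 62 start sites, and were searched on both strands for 3 motifs. The kappaB consensus of NF-kB was found in 3 of the 62 Serpin promoters (4.84%, beside 8.46% of 32817 promoters of all genes): those of Serpina3g, Serpina3i and Serpinh1. The STAT motif TTCNNNGAA was found in 11 (17.7%, beside 8.29%), and the AP-1 motif TGANTCA in 12 (19.4%, beside 7.81%). The STAT promoters belonged to 8 genes, since overlapping windows of Serpina11, Serpina3f and Serpinb2 hold the same site. The AP-1 promoters belonged to 11 genes, among them the similar copies Serpina1a, Serpina1b, Serpina1c and Serpina1d. The promoters are therefore not independent, and the percentages do not show an excess of either motif. Serpina3g and Serpina3i carried a kappaB and a STAT match whose starts lie 52 bases apart in both, and Serpina3f carried the STAT match alone. These stretches are printed on the genes' plus strand, with the matches in capitals (kappaB first where present, then STAT).
Serpina3g, chr12:104236050-104236134: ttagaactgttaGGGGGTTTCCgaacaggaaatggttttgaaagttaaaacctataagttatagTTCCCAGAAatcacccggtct
Serpina3i, chr12:104262956-104263040: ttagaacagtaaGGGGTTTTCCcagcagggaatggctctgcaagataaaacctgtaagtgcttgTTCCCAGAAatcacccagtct
Serpina3f, chr12:104214411-104214443: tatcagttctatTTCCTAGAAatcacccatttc

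The 300-base promoter of Serpina3n held none of the 3 motifs. Of the 12 promoters with an AP-1 match, 8 belonged to 7 clade b genes in the chromosome 1 cluster: Serpinb2, Serpinb5, Serpinb7, Serpinb8, Serpinb10, Serpinb11 and Serpinb12, whose values are given below. The matches of 3 of them, which were lower at both times, not called and higher at 1 month respectively, are printed with the motif in capitals, and the 4 Serpinb3 promoters in the same cluster had no match to any of the 3 motifs.
Serpinb7, chr1:107422632-107422662: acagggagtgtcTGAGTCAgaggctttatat
Serpinb5, chr1:106861023-106861053: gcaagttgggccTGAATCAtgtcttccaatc
Serpinb12, chr1:106934392-106934422: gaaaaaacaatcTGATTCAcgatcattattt

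A match describes letters in these windows and was not tested for binding. Genes with an AP-1 match included some called lower, some called higher and some not called.

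The remaining clade a genes include the member with the smallest p among those that fell. Serpina12 (vaspin, an adipose and skin serpin that inhibits kallikrein 7) measured 112, 117 and 126 CPM in wild type and 1.6, 3.57 and 11 CPM in the mutant at day 5. At 1 month it measured 90.1, 120 and 136 CPM in wild type and 1.65, 3.09 and 4.93 CPM in the mutant. Every mutant library lay below every wild-type library at both times, and mutant replicates 1 and 3 were the highest at day 5. The log2 fold change was -4.38 ± 0.36 at day 5 (20.9-fold lower, adjusted p = 4.12e-09) and -5.21 ± 0.38 at 1 month (36.9-fold lower, adjusted p = 5.17e-10), with no difference called between the times (-0.82 ± 0.46, adjusted p = 0.343).

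Serpina9, known in human as a germinal-centre B-cell serpin, measured 1.03, 1.46 and 1.97 CPM in wild type and 3.8, 21.1 and 35.8 CPM in the mutant at day 5, and 0.684, 1.07 and 2.23 against 11.3, 20.6 and 35.9 CPM at 1 month. All mutant libraries lay above all wild-type libraries, and mutant replicate 1 was the lowest of its group at day 5. The log2 fold changes were 3.79 ± 0.44 (13.8-fold, adjusted p = 4.27e-07) and 4.13 ± 0.44 (17.5-fold, adjusted p = 7.54e-08). The same 2 mutant libraries with the least Serpina9 at day 5, replicates 1 and 3, had the lowest sums of the neutrophil list, 1943 and 2268 CPM against 5334 to 8780 CPM in the other 4. They also had the lowest sums of wound keratinocyte markers, 1290 and 2253 against 4930 to 12042 CPM. This was not particular to Serpina9: Serpinb3a, Serpinb3c, Serpinb1a and Serpina3n were also lowest in these 2 mutant libraries. Serpina3i, Serpina3g and Serpinb3b, which were higher in the mutant too, were not. How these levels relate to the markers was not tested.

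Serpina10, which inhibits coagulation factor Xa with protein Z, ran from 0.0616 to 0.261 CPM in wild type against 0.256 to 0.859 CPM in the mutant at day 5, and from 0.0969 to 0.313 and 0.956 to 1.46 CPM at 1 month. The genotypes overlapped at day 5 and were apart at 1 month. Its log2 fold changes were 1.60 ± 0.34 (adjusted p = 0.000502) and 2.63 ± 0.29 (adjusted p = 1.33e-07). Serpina1e, a copy of alpha-1-antitrypsin, rose in both genotypes with time: it had 1 count over the 6 wild-type and 3 counts over the 6 mutant libraries at day 5, and 33 and 170 counts at 1 month. The ratio between times was 24.3 in wild type (95% counting interval 4.07 to 988) and 46.8 in the mutant (15.7 to 229). At 1 month its log2 fold change between genotypes was 2.43 ± 0.39 (adjusted p = 1.64e-05). Of the 5 other Serpina1 copies none passed the filter, and summed to 1 row with Serpina1e they gave 0.532 ± 0.359 CPM in wild type and 1.9 ± 0.656 CPM in the mutant at 1 month (log2 fold change 1.84 ± 0.37, adjusted p = 0.000215).

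Clade b held the largest increases. The Serpinb3 genes are the mouse counterparts of human SERPINB3 and SERPINB4, inhibitors of cysteine cathepsins and chymotrypsin-like proteases that are known to rise in psoriatic epidermis. Serpinb3a measured 3.13, 4.33 and 5.18 CPM in wild type and 93.7, 254 and 373 CPM in the mutant at day 5. At 1 month it measured 0.37, 1.92 and 3.53 CPM in wild type and 33.4, 270 and 495 CPM in the mutant. The ranges were far apart at both times, although the mutant libraries at 1 month spread widely, with replicates 6 and 1 lowest. The log2 fold change was 5.76 ± 0.62 at day 5 (54.4-fold, adjusted p = 1.6e-07) and 7.19 ± 0.66 at 1 month (146-fold, adjusted p = 1.1e-08), with an interaction of 1.42 ± 0.75 (adjusted p = 0.309) that became 1.68 (adjusted p = 0.0419) without the 3 libraries that stood apart.

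Serpinb3c was close to absent in wild type, with 2 counts over 6 libraries at each time, against 558 and 213 counts in the mutant. By library it ran from 1.31 to 11 CPM in the mutant at day 5 and from 0.0973 to 3.27 CPM at 1 month. These counts give ratios of 262 (95% counting interval 72.2 to 2168) at day 5 and 112 (30.7 to 932) at 1 month, with adjusted p of 9.73e-07 and 1.05e-05; the intervals cover counting error only. Serpinb3d, which did not pass the filter, was not counted in any of the 12 libraries from wild type, and had 30 counts at day 5 and 83 at 1 month in the mutant. With 3 counts per group taken as the floor, it was at least 9.39-fold higher at day 5 and at least 29.1-fold higher at 1 month.

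Serpinb3b, which was already abundant in wild-type ear, measured 112, 117 and 123 CPM in wild type and 266, 338 and 371 CPM in the mutant at day 5. At 1 month its libraries overlapped, at 24.4, 78.1 and 119 CPM in wild type and 25.9, 147 and 202 CPM in the mutant. Its log2 fold change was 1.5 ± 0.40 at day 5 (adjusted p = 0.00387) and 0.78 ± 0.39 at 1 month (adjusted p = 0.105), and the difference between the times was not called (-0.72 ± 0.55, adjusted p = 0.564). Without mutant replicate 1, or without mutant replicate 6, the 1 month comparison of Serpinb3b passed the threshold (adjusted p up to 0.0423), and without all 3 libraries that stood apart its log2 fold change was 1.05 (adjusted p = 0.00204). Summed, the 4 copies rose from 121 ± 3.54 to 571 ± 118 CPM between genotypes at day 5 (2.23 ± 0.45, adjusted p = 0.000374) and from 73.2 ± 41 to 383 ± 264 CPM at 1 month (2.39 ± 0.46, adjusted p = 0.000135).

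**Figure D4:**
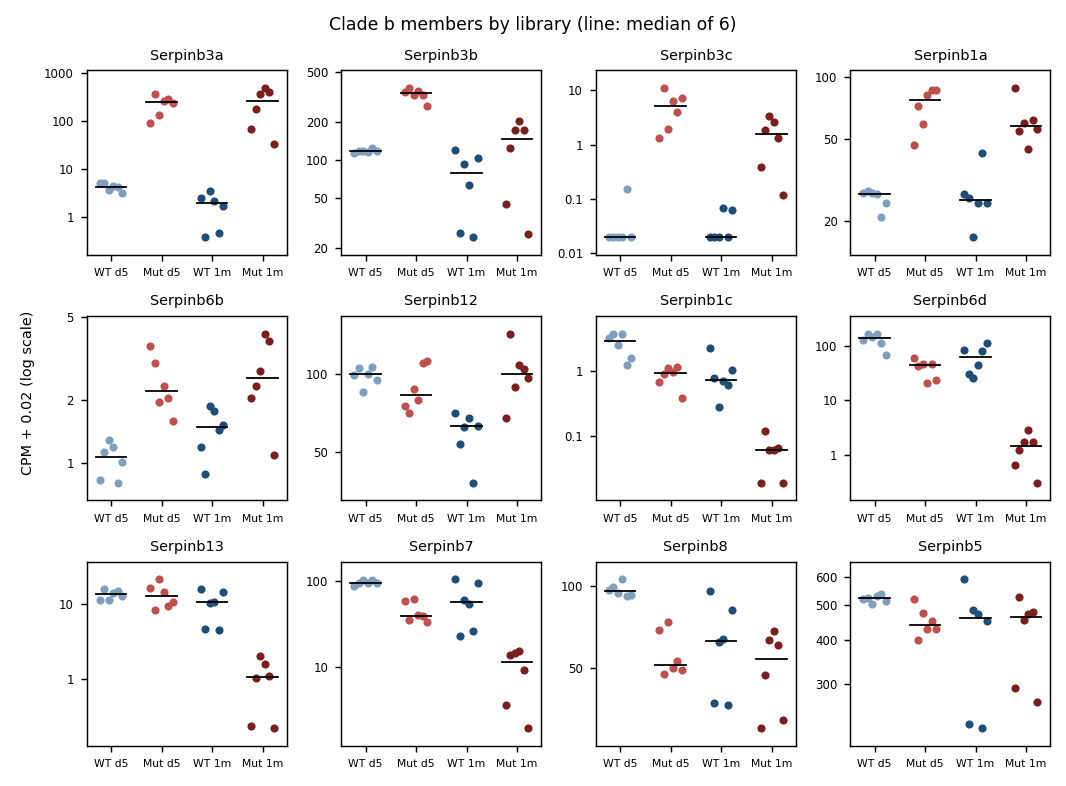
CPM plus 0.02 on a log scale in each library for 12 clade b members, with the median of 6 as a line. Serpinb3a and Serpinb3c rise in all mutant libraries, Serpinb6d, Serpinb13 and Serpinb1c are lowest in the mutant at 1 month, and Serpinb5 has 2 low libraries in each genotype at 1 month.

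At 1 month Serpinb5 measured 225 and 231 CPM in wild-type replicates 5 and 2 and 450 to 591 CPM in the other 4, and 267 and 292 CPM in mutant replicates 6 and 1 and 454 to 528 CPM in the other 4. Of these low libraries, wild-type replicate 2 and mutant replicates 1 and 6 are those that stood apart by GC correlation. Fibroblast markers were summed at 14372 and 11064 CPM in those wild-type libraries and 33779 and 19597 CPM in those mutant libraries, against 8983 to 11506 and 12198 to 21236 CPM in the others. Basal keratinocyte markers were summed at 11536 and 14741 CPM in the low wild-type libraries, against 12475 to 17757 CPM in the others. In the low mutant libraries these sums were 22998 and 22689 CPM, against 13994 to 23463 CPM in the others. Serpinb5 did not pass the test at either time (-0.21 ± 0.20, adjusted p = 0.418, and 0.02 ± 0.20, adjusted p = 0.937). The part of tissue make-up in the spread was not tested.

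Serpinb1a, the mouse counterpart of leukocyte elastase inhibitor, which protects cells from neutrophil serine proteases, measured 20.9, 27.0 and 27.9 CPM in wild type and 46.5, 77.2 and 86.8 CPM in the mutant at day 5, and 16.7, 25.2 and 42.7 against 44.7, 57.9 and 88.6 CPM at 1 month. The genotypes did not overlap at either time. Its log2 fold changes were 1.49 ± 0.19 (2.8-fold, adjusted p = 1.65e-06) and 1.18 ± 0.19 (2.27-fold, adjusted p = 1.57e-05). Its copy Serpinb1c went the other way, from a median of 2.74 CPM in wild type to 0.889 CPM in the mutant at day 5 and from 0.709 to 0.0422 CPM at 1 month (-1.61 ± 0.39, adjusted p = 0.00197, and -4.34 ± 0.59, adjusted p = 1.96e-06). Its interaction was -2.73 ± 0.74 (adjusted p = 0.0202) and did not pass without the 3 libraries that stood apart (adjusted p = 0.0601).

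Serpinb6d showed the largest fold among the members that fell at 1 month. It measured 66.8, 138 and 167 CPM in wild type and 21.1, 44.1 and 59.2 CPM in the mutant at day 5, and 25.6, 63.4 and 114 CPM against 0.292, 1.46 and 2.85 CPM at 1 month. The genotypes were separate at both times, and the mutant fell further between them. The log2 fold change was -1.73 ± 0.38 at day 5 (adjusted p = 0.000918) and -5.47 ± 0.47 at 1 month (44.4-fold lower, adjusted p = 4.23e-09), with an interaction of -3.75 ± 0.57 (adjusted p = 0.000137).

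Serpinb13 (headpin, a keratinocyte inhibitor of cathepsins K and L) was not called at day 5, with 11.3, 13.6 and 16.2 CPM in wild type and 8.48, 12.8 and 21.6 CPM in the mutant (0.01 ± 0.37, adjusted p = 0.989). At 1 month it measured 4.42, 10.7 and 16.2 CPM in wild type and 0.195, 1.03 and 1.97 CPM in the mutant. That separation gave a log2 fold change of -3.32 ± 0.42 (9.97-fold lower, adjusted p = 9.07e-07) and an interaction of -3.33 ± 0.55 (adjusted p = 0.000329). Serpinb7 (megsin), whose loss in human causes a palmoplantar keratoderma, measured 88.2 to 102 CPM in wild type against 33.8 to 62.0 CPM in the mutant at day 5, and 23.1 to 105 and 1.9 to 15.1 CPM at 1 month. Its log2 fold changes were -1.10 ± 0.39 (adjusted p = 0.0259) and -2.65 ± 0.41 (adjusted p = 1.08e-05). The day 5 call of Serpinb7 was lost without mutant replicate 2, 5 or 6 (adjusted p up to 0.0566). Its interaction (-1.56 ± 0.55, adjusted p = 0.0817) passed without wild-type replicate 2 or 5 of 1 month (adjusted p up to 0.0498), without the 3 libraries that stood apart (-1.30, adjusted p = 0.0234), and with DESeq2, limma voom or GC correlation as a covariate (adjusted p from 0.00275 to 0.0358).

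Among the other clade b members, Serpinb6b was higher at both times, at 0.784 to 1.27 against 1.56 to 3.62 CPM at day 5 (1.23 ± 0.28, adjusted p = 0.00114) and with overlap at 1 month (0.92 ± 0.27, adjusted p = 0.00654). Serpinb8, an inhibitor of furin, was lower at day 5, at 92.4 to 106 against 47.5 to 73.8 CPM (-0.76 ± 0.22, adjusted p = 0.00768), and not called at 1 month (-0.32 ± 0.22, adjusted p = 0.245). Serpinb12, an epithelial inhibitor of trypsin-like proteases, was not called at day 5 (-0.15 ± 0.16, adjusted p = 0.491) and was higher at 1 month (0.77 ± 0.16, adjusted p = 0.000311), when wild type ran from 38.0 to 70.7 CPM and the mutant from 67.5 to 143 CPM. Serpinb12 had 1 of the 2 positive interactions (0.92 ± 0.22, adjusted p = 0.0105), and its wild-type level was lower at 1 month than at day 5 (-0.73 ± 0.16, adjusted p = 0.00552). Serpinb11 was higher at 1 month (0.93 ± 0.36, adjusted p = 0.0365) and Serpinb6a lower (-0.57 ± 0.14, adjusted p = 0.00144), both with overlapping libraries. The call of Serpinb11 was lost on leaving out any 1 of 7 libraries (adjusted p up to 0.112), and without the 3 that stood apart it was 1.18 (adjusted p = 0.000272), when its interaction passed too (1.24, adjusted p = 0.0129). Serpinb9, the granzyme B inhibitor, was not called at either time (0.23 ± 0.16, adjusted p = 0.254, and 0.25 ± 0.15, adjusted p = 0.194).

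Serpinb2 (plasminogen activator inhibitor 2) was among the more abundant clade b genes, at 149 to 182 CPM in wild type against 150 to 279 CPM in the mutant at day 5, and was not called at either time (adjusted p = 0.543 and 0.475). It overlaps Serpinb10 over 6476 bases of the same strand, so reads of this stretch are uncertain between them. Serpinb6a overlaps Nqo2 on the opposite strand, and the sources used here do not say whether counting used strand.

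**Figure D5:**
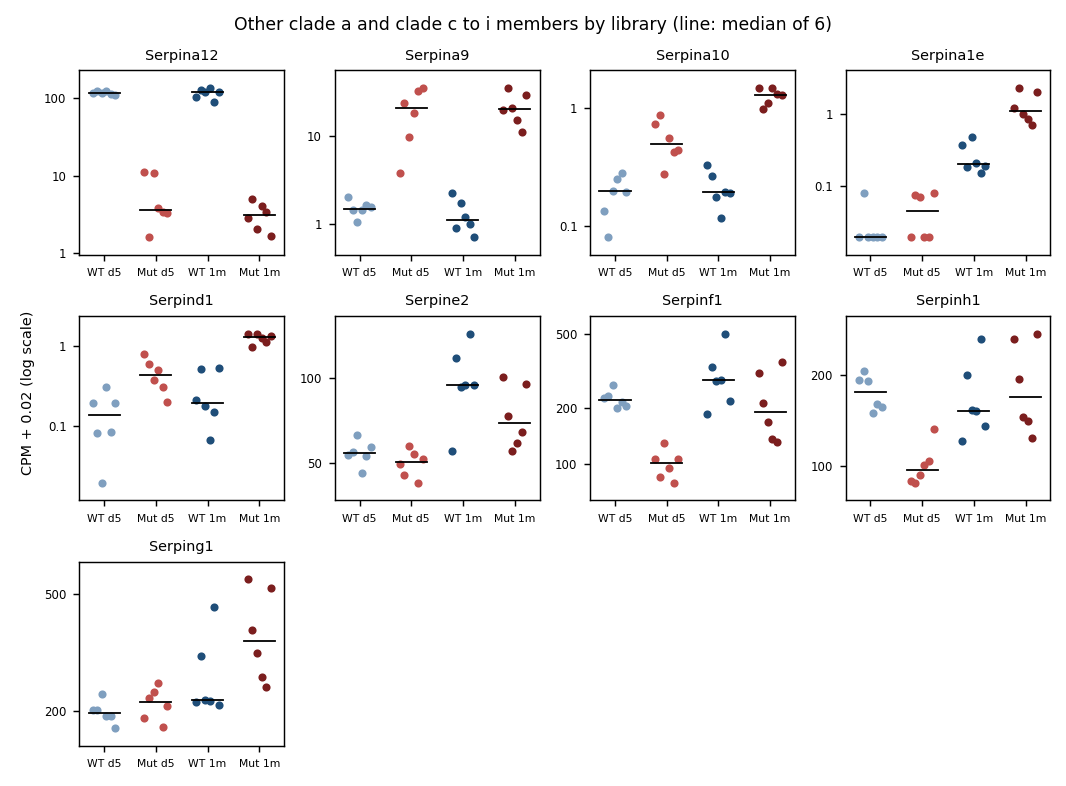
CPM plus 0.02 on a log scale in each library for 4 clade a and 5 clade c to i members, with the median of 6 as a line. Serpina12 falls and Serpina9 rises in all mutant libraries, and Serpinf1 and Serpinh1 are lower in all 6 mutant libraries at day 5 and overlap with wild type at 1 month.

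Serpinf1 (pigment epithelium-derived factor, a secreted anti-angiogenic protein without protease inhibition) measured 200 to 267 CPM in wild type against 79.6 to 130 CPM in the mutant at day 5 (medians 221 and 101). At 1 month it overlapped, at 187 to 503 and 131 to 356 CPM. Its log2 fold change was -1.16 ± 0.24 at day 5 (2.23-fold lower, adjusted p = 0.000387) and -0.46 ± 0.23 at 1 month (adjusted p = 0.111). Without the 3 libraries that stood apart the 1 month value was -0.88 (adjusted p = 0.00258), and it also passed without wild-type replicate 1 or mutant replicate 6 (adjusted p up to 0.0493). Serpinh1 (HSP47, the collagen chaperone of the endoplasmic reticulum) measured 150, 176 and 206 CPM in wild type and 88.3, 97.4 and 133 CPM in the mutant at day 5, and 121 to 264 against 124 to 274 CPM at 1 month. The log2 fold change went from -0.80 ± 0.20 (adjusted p = 0.00233) to 0.15 ± 0.20 (adjusted p = 0.553), and the 1 month value was -0.15 (adjusted p = 0.53) without the 3 libraries that stood apart. The interaction, 0.95 ± 0.28 (adjusted p = 0.0328), was lost on leaving out any 1 of 13 libraries, with adjusted p up to 0.0837, and was 0.64 (adjusted p = 0.101) without those 3.

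Of 9 fibroblast markers, 1 was higher and 5 lower at day 5, and 7 were higher and 2 lower at 1 month. Serpinf1 and Serpinh1 were lower at day 5 too, and neither was called at 1 month in the fit to all 24 libraries. Among all tested genes, 20.7% were higher and 20.2% lower at day 5, and 25.5% and 21.5% at 1 month. The fibroblast markers had summed levels of 14046 to 19419 CPM in wild type against 5364 to 10337 CPM in the mutant at day 5, and 8983 to 14372 and 12198 to 33779 CPM at 1 month. The highest sum was that of mutant replicate 6, which stood apart by GC correlation. None of the 9 was at 0. Their part in the result was not tested.

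Serpind1 (heparin cofactor II, a thrombin inhibitor) was at most 0.291 CPM in wild type and ran from 0.18 to 0.771 CPM in the mutant at day 5, and from 0.0484 to 0.513 against 0.956 to 1.41 CPM at 1 month. Its log2 fold changes were 1.72 ± 0.52 (adjusted p = 0.0103) and 2.21 ± 0.41 (adjusted p = 0.000101), and it lies within Pi4ka on the opposite strand. Serpine2 (protease nexin 1) was lower at 1 month by a narrow margin (-0.42 ± 0.17, adjusted p = 0.0494), and that call was lost on leaving out any 1 of 19 libraries, with adjusted p up to 0.17. Without the 3 libraries that stood apart it was -0.64 (adjusted p = 0.00577). Serping1 was higher at 1 month by a like margin (0.49 ± 0.20, adjusted p = 0.0483), at 210 to 451 CPM in wild type against 241 to 559 CPM in the mutant. Its highest mutant values, 559 and 523 CPM, were those of replicates 1 and 6, and without the 3 libraries that stood apart its change was 0.16 (adjusted p = 0.511). That call was also lost on leaving out any 1 of 19 libraries (adjusted p up to 0.201). Serpinc1 (antithrombin), Serpinf2 (alpha-2-antiplasmin) and Serpini1 (neuroserpin) were at most 1.61 CPM in any library and not called at either time.

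The levels also moved with time within a genotype, in comparisons that share libraries with those above. In wild type, 10 members were higher at 1 month than at day 5 and 2 lower, while 9.09% of all tested genes were called (6.28% higher and 2.81% lower). Clade a supplied 8 of the 10: Serpina1e and 7 Serpina3 copies, Serpina3c, Serpina3g, Serpina3h, Serpina3i, Serpina3k, Serpina3m and Serpina3n. Serpina3g rose by 1.11 ± 0.20 (adjusted p = 0.00107) and Serpina3c by 0.97 ± 0.18 (adjusted p = 0.00196), with no overlap between the times. The calls of Serpina3h and Serpina3i were the least firm, lost on leaving out any 1 of 9 and of 7 libraries, with adjusted p up to 0.0858 and 0.0767, and that of Serpina3k was lost without day 5 replicate 4 or 1 month replicate 2 (adjusted p up to 0.053). Wild-type libraries of the times did not overlap for 7 members, beside 5.07% of all tested genes.

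In the mutant, 7 members were higher at 1 month than at day 5 and 15 lower, while 19.4% of all tested genes were called (11.2% higher and 8.23% lower), and 12 members did not overlap, beside 8.61%. Clade c to i members made up 5 of the 7 (Serpind1, Serpine2, Serpinf1, Serping1 and Serpinh1), with Serpinf1 up by 1.12 ± 0.24 (adjusted p = 0.0012). Of the 15 that fell, 8 were in clade a and 7 in clade b, led by Serpinb6d (-4.80 ± 0.46, adjusted p = 6.22e-08) and Serpinb13 (-3.74 ± 0.43, adjusted p = 7.75e-07). The fall of Serpina3n between the times in the mutant (-0.57 ± 0.19, adjusted p = 0.0344) was lost on leaving out any 1 of 11 libraries (adjusted p up to 0.12), and that of Serpina3k on leaving out any 1 of 8 (up to 0.104). The falls of Serpina3b and Serpinb3c were lost without day 5 replicate 1 or 3 (up to 0.066), and without day 5 replicate 2 or 6 or 1 month replicate 1 (up to 0.0926), in that order, and the rise of Serpine2 without 1 month replicate 1 or 6 (up to 0.062). Without the 3 libraries that stood apart the fall of Serpina3n was -0.88 (adjusted p = 0.000836) and the rise of Serpinf1 0.71 (adjusted p = 0.0206). Under that omission the calls of Serpina3k (-1.66, adjusted p = 0.128), Serpinb3c (-1.19, adjusted p = 0.0819), Serpine2 (0.36, adjusted p = 0.168) and Serping1 (0.51, adjusted p = 0.0643) were lost. Serpinb2 and Serpinh1 kept theirs at -0.72 and 0.60 (adjusted p = 0.0172 and 0.0226), and Serpinb11 gained a call as higher (1.01, adjusted p = 0.0026).

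Proteases and other inhibitors were counted from lists of genes that can meet these serpins in skin. Their counts stand beside 20.7% higher and 20.2% lower at day 5, and 25.5% higher and 21.5% lower at 1 month, among all tested genes. Kallikreins, the trypsin- and chymotrypsin-like proteases that shed corneocytes, had 7 of 10 higher and 1 lower at day 5, and 8 higher and 1 lower at 1 month, with median log2 fold changes of 1.27 and 2.00 beside -0.02 and 0.05 for all tested genes. Klk13 stood at 2.74 ± 0.877 CPM in wild type and 68.5 ± 51.1 CPM in the mutant at day 5 (4.64 ± 0.61, adjusted p = 2.39e-06), and Klk6 at 8.58 ± 1.86 and 110 ± 73.6 CPM (3.68 ± 0.56, adjusted p = 1.42e-05). Klk14 stood at 0.0611 ± 0.0555 and 0.541 ± 0.549 CPM at day 5 and was higher at both times (3.03 ± 0.73 and 3.77 ± 0.55, adjusted p = 0.00172 and 4.81e-06). Membrane and epithelial serine proteases had 5 of 12 higher and 3 lower at day 5 and 7 higher and 3 lower at 1 month, with Prss27 at 2.0 ± 0.564 and 59.7 ± 30.5 CPM at day 5 (4.90 ± 0.45, adjusted p = 2.01e-08) and Tmprss11f at 30.2 ± 3.45 and 7.6 ± 3.52 CPM (-1.99 ± 0.44, adjusted p = 0.000879).

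The serine proteases of neutrophil granules, which Serpinb1a and Serpina3n are known to inhibit, had low counts in all groups. Of 3 such genes 2 were tested, and Ctsg stood at 1.16 ± 0.324 CPM in wild type and 0.501 ± 0.173 CPM in the mutant at day 5 (-1.20 ± 0.42, adjusted p = 0.0257), while Prtn3 stood at 0.25 ± 0.212 and 0.895 ± 0.481 CPM (1.81 ± 0.57, adjusted p = 0.0142). At 1 month neither was called. Granzymes and perforin had 5 of 10 tested, with 2 higher and 1 lower at day 5 and 2 higher and 2 lower at 1 month. Gzmb, the target of Serpinb9, rose (2.38 ± 0.45, adjusted p = 0.000189, at day 5), and Prf1 was lower at 1 month, at 6.77 ± 1.24 against 0.545 ± 0.203 CPM (-3.62 ± 0.23, adjusted p = 6.21e-11). Mast cell proteases had 1 of 6 tested higher and 1 lower at day 5, and 4 higher and 0 lower at 1 month, with Cma1, a chymase, at 29.0 ± 15.0 and 65.1 ± 41.5 CPM at 1 month (1.17 ± 0.30, adjusted p = 0.00261).

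Plasminogen activation genes had 5 of 7 tested higher at both times and none lower: Plau (urokinase), a target of Serpinb2, stood at 54.7 ± 7.73 and 123 ± 15.9 CPM at day 5 (1.17 ± 0.14, adjusted p = 4.24e-07), and its receptor Plaur at 4.9 ± 0.574 and 37.4 ± 17.1 CPM (2.93 ± 0.35, adjusted p = 5.84e-07). Coagulation and complement proteases had 7 of 10 tested higher and 2 lower at each time, with F10, the target of Serpina10, at 0.379 ± 0.112 and 14.2 ± 8.11 CPM at day 5 (5.20 ± 0.46, adjusted p = 9.15e-09). F3 (tissue factor) was lower, at 111 ± 4.65 and 38.8 ± 8.22 CPM (-1.52 ± 0.14, adjusted p = 2e-08). C1ra, the complement protease that Serping1 inhibits, was higher at both times (0.91 ± 0.16 and 1.31 ± 0.16, adjusted p = 9.33e-05 and 5.56e-07). Lysosomal cysteine cathepsins had 5 of 10 higher and 3 lower at day 5 and 6 higher and 3 lower at 1 month, and Ctss rose at both times (1.14 ± 0.18 and 1.52 ± 0.19, adjusted p = 3.07e-05 and 4.51e-07). Ctsk, a target of Serpinb13, went from -0.63 ± 0.17 (adjusted p = 0.0052) to 1.22 ± 0.17 (adjusted p = 3.83e-06).

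Protease inhibitors of other families had 12 of 26 tested higher and 6 lower at day 5, and 12 higher and 9 lower at 1 month, so they too went in both directions. Stfa1, a stefin of cysteine proteases found in neutrophils and epidermis, stood at 0.394 ± 0.216 and 113 ± 74.0 CPM at day 5 (8.15 ± 0.69, adjusted p = 5.7e-09), and Slpi, a secreted inhibitor of neutrophil elastase, at 2.41 ± 0.62 and 81.4 ± 34.6 CPM (5.07 ± 0.40, adjusted p = 1.77e-09). A2m, the broad plasma trap alpha-2-macroglobulin, was lower at both times (-1.78 ± 0.21 and -2.64 ± 0.22, adjusted p = 6.04e-07 and 2.49e-09), as was Wfdc21 (-1.47 ± 0.19 and -3.19 ± 0.20, adjusted p = 1.5e-06 and 6.21e-11).

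The 26 untested members were counted at low levels. Serpina11 had 1 count over the wild-type and 45 over the mutant libraries at day 5, a ratio of 42.2 (95% counting interval 7.21 to 1705), and shares 34.2% of its windows with an overlapping gene. Serpina3d-ps had 98 counts in wild type and 3 in the mutant at 1 month, 31 times fewer (10.3 to 153), and Serpine3 had 26 and 2, 12.3 times fewer (3.09 to 107). The Serpinb9 copies other than Serpinb9 itself had 0 to 94 counts over all 24 libraries each.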

How the data were processed

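Whole-ear RNA was sequenced as single-end polyA libraries, 6 in each of 4 groups, per the labels' protocols. The deposited table holds the expected counts that the authors estimated for each Ensembl gene. The submitters' processing notes name STAR 2.5.2, RSEM 1.3.0, DESeq2 1.14.1 and GRCm38, and the release of the Ensembl annotation is not stated there. Rounding to whole numbers altered 6.71% of the deposited values. Symbols, lengths and transcripts came from GENCODE M21 (51719 of 51912 identifiers matched), and promoters from RefSeq.

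Genes were kept by edgeR's filterByExpr (minimum count 10) and fitted with edgeR 4.0.16 (R 4.3.3; TMM, robust quasi-likelihood, 1 coefficient per group, all 24 libraries), adjusted by Benjamini-Hochberg at 0.05 over 17287 genes. CPM use TMM library sizes. Fold changes are mutant over wild type or 1 month over day 5, and ± in a log2 fold change is its SE. Coding sequences were aligned with MAFFT 7.526. On data simulated for day 5 over 17287 genes, the fit recovered 60 of 66 genes set to a 4-fold change, 40 of 67 set to 2-fold and 15 of 67 set to 1.5-fold, and 5 of 17087 unchanged genes were called. Far fewer genes changed in the simulation than the 40.9% called at day 5, and the Benjamini-Hochberg cut-off depends on that share. These figures check that the fit runs as intended and do not give its recovery in the real contrast. No 2 libraries of a group agreed within sampling noise.

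The members and lists were chosen with earlier results of these data known. Named in full are the 20 members with the smallest adjusted p at day 5 and the 20 at 1 month, and the 5 in the interaction and the 5 in wild-type time, where called; of each other list, up to 4 genes. Of clades c to i, 1 tested member is included in the counts and is not reported here by itself. Alternatives covered scaling, DESeq2 1.42.0, limma voom (limma 3.58.1), filters, summed copies, a replicate block, the samples in the fit, a fold threshold and leaving out each library.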

Additional observations from a re-analysis of the deposited data

Results flagged for a closer look

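The change between genotypes differed between day 5 and 1 month for 15 members, by the interaction of genotype and time in edgeR's quasi-likelihood test (log2 fold change at 1 month minus that at day 5). The Serpina3 copies among them were Serpina3k at -4.15, Serpina3e-ps at -3.35, Serpina3m at -3.10, Serpina3h at -2.45, Serpina3f at -2.27, Serpina3i at -1.70, Serpina3n at -1.47, Serpina3c at -1.31 and Serpina3g at -1.27. In clade b they were Serpinb6d at -3.75, Serpinb13 at -3.33, Serpinb1c at -2.73, Serpinb6a at -0.69 and Serpinb12 at 0.92. In clades c to i, Serpinh1 stood at 0.95.

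Single libraries lay far from the other 5 of their group in 6 of the 120 combinations of a named member and a group, and chance alone gives about 1 in 20. Serpina3n was at 40.4 CPM in wild-type replicate 3 at day 5, Serpina3i at 22.5 CPM in mutant replicate 3 at day 5, and Serpinh1 at 133 CPM in mutant replicate 6 at day 5. Serpina3k was at 1.4 CPM in wild-type replicate 2 at 1 month. The other 2 were low counts in wild type at day 5: Serpina1e at 0.0616 CPM in replicate 2 and Serpinb3c at 0.131 CPM in replicate 5.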

How the results depend on the processing

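Among 150 log2 fold changes of the named members, none that was called changed sign under an alternative; 15 that were not called did so under at least 1, and none of those was called there. Leaving out 1 library at a time gave 13 to 15 members higher and 9 to 10 lower at day 5, 12 to 14 higher and 12 to 15 lower at 1 month, 1 to 2 higher and 13 to 15 lower in the interaction, and 7 to 11 higher and 2 to 3 lower for wild-type time. Summing the copies to 1 row each, which leaves fewer rows to test, gave 7 higher at day 5 (14 as reported above), 6 lower at 1 month (13), 3 lower in the interaction (13), 2 higher (10) and 1 lower (2) for wild-type time, and 5 lower for mutant time (15). Members higher in the interaction (2) became 8 with limma voom, 1 with no filter, 4 with library GC correlation as a covariate and 0 under a threshold of 1 on the size of the log2 fold change. The replicate block gave 1; samples sharing a number did not deviate together (3 of 36 pairs above 0.1, range -0.733 to 0.394, and 3 of 24 libraries correlated best with their own number). For wild-type time, limma voom gave 10 lower (2), and the fold threshold 4 higher and 1 lower. For mutant time, 4 were higher (7) with a filter of 1 CPM in 6 libraries and 4 with the fold threshold, and 9 were lower (15) with only the groups compared. Apart from summed copies, the cause was not tested. The share of all tested genes called under each alternative is not given beside these counts, so they do not show whether a move is particular to the Serpin genes. The alternatives without the 3 libraries that stood apart and with GC correlation as a covariate were chosen after seeing the data. Members below about 1 CPM rest on few counts, and their fold changes depend on the prior count.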
